A study of Mus musculus with 6 samples.

Results

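Peaks of Flag-tagged OTUD3 that lie deep inside very long genes of mouse epididymal fat numbered 3248, of 31709 distinct peaks on chromosomes 1 to 19 in 3 peak lists. A peak belonged to this set when its summit lay inside a protein-coding gene with an annotated span of at least 300 kb and more than 1 kb from either end of any protein-coding gene. The set was chosen by the position of the summit, with no threshold on height or p-value. Where an interval had several summits, the one with the lowest p stood for it. It held 1048 peaks in replicate 1, 697 in replicate 3 and 1503 in replicate 4 (mean 1083 ± 404 SD, n = 3), or 8.89%, 10.7% and 11.2% of each list. The host genes were 533 of 20665 protein-coding genes on these chromosomes (2.58%). Their spans ran from 300.2 kb to 2271 kb with a median of 451 kb, against a median of 17.5 kb for all protein-coding genes.

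The assay was chromatin immunoprecipitation followed by sequencing (ChIP-seq). All mice had received an intraperitoneal injection of an AAV2 vector, an adeno-associated virus, that carries Otud3 with a Flag tag, and the fat was taken at week 4. The tissue is labelled both as epididymal fat and as adipocyte, and peak positions do not measure a cell type marker, so the label was not checked. Libraries numbered 1, 3 and 4 were made with an antibody against Flag, and 3 input DNA libraries with the same numbers were not analysed here. The sources used here do not give strain, age, the promoter that drives the tagged gene or whether the numbers stand for separate animals. No group without the tagged protein was compared.

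OTUD3 is a deubiquitinase, an enzyme that cuts ubiquitin from other proteins and so acts on partner proteins and not on DNA itself. Very long mammalian genes consist mostly of introns, and many of them encode adhesion molecules, ion channels and synaptic proteins that neurons use. Fat cells use a smaller number of very long genes, among them regulators of adipocyte identity such as Ebf1, Nfia, Zfp423 and Prdm16. A comparison of peak density between these kinds of long gene asks whether tagged OTUD3 was found more often in the long genes that fat uses.

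Sequence could be read for the few of these peaks that touch a promoter window of the RefSeq table (build GRCm38.p6, 250 bases before to 50 bases after an annotated start). Of the 3248 peaks, 6 touched such a window, 5 of them in replicate 1, and each window belonged to a start inside the host gene and not at its end. For a peak in Mbd5, in replicate 1, the nearest such start was of the protein-coding gene Orc4, 310 bp from the summit. Stretches of the 4 peaks whose summits lay closest to a start inside the host gene are shown. These stretches are where the peaks come nearest to promoter sequence. Each is printed 5′ to 3′ on the strand of the noncoding gene that starts there, and capitals mark bases within 50 bp of the peak summit.
Prkce, chr17:86445078-86445237, minus strand: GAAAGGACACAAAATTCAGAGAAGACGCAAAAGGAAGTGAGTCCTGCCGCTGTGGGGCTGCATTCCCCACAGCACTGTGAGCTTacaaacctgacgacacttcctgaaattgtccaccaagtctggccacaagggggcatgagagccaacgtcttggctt
Cntn3, chr6:102265850-102266087, plus strand: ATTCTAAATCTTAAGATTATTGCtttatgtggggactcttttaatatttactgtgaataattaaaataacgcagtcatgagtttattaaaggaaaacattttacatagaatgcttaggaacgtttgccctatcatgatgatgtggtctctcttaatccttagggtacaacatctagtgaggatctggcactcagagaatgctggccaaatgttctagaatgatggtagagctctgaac
Frmd4b, chr6:97559782-97559965, plus strand: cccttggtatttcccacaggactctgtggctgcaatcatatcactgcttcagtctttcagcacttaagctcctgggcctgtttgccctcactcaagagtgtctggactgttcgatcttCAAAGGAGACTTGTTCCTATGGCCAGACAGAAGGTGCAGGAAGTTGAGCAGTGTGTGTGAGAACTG
Vps13d, chr4:144956908-144957069, minus strand: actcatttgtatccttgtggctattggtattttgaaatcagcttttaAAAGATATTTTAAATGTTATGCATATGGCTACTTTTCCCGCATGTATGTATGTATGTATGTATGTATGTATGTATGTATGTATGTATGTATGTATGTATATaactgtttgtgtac

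The peak in Prkce, the gene of a protein kinase C, had its summit 217 bp from the start of the lncRNA Gm30284, and 4 fragments in replicate 1 gave it a fold of 3.55 (q = 0.651). GC made up 52.5% of its printed stretch, against a median of 52.7% over 32851 promoter windows. The peak in Cntn3, which encodes the neural adhesion protein contactin 3, was the only peak of that gene in any list, with a fold of 2.80 from 3 fragments (q = 0.992) and a GC share of 35.3%. Its summit lay 278 bp from the start of the lncRNA 4930587E11Rik. The peak in Frmd4b, a FERM domain gene, had its summit 82 bp from the start of the lncRNA Gm46969, with a fold of 2.76 from 3 fragments. The stretch in Vps13d, from replicate 4, held an uninterrupted run of 14 copies of ATGT, a simple repeat, and a GC share of 29.0%. Its summit lay 153 bp from the start of the lncRNA Gm42344, where 5 fragments gave a fold of 3.26.

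Few of the peaks lay near starts inside long genes. The promoter table placed 805 annotated starts of any gene inside the long genes and away from their ends, and the bases within 1 kb of them held 14, 4 and 7 peaks in replicates 1, 3 and 4. That was 9.64, 2.75 and 4.82 peaks per Mb, against 3.46, 2.32 and 5.01 in the rest of the long genes. In order, the ratios were 2.78, 1.19 and 0.962, so the libraries did not share a direction (two-sided exact sign-flip permutation test over 3 libraries, p = 0.5, where the smallest possible is 0.25).

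Enrichment at single sites inside long genes was weak. The fold is the authors' ratio of fragments at the summit to the local background, each with a pseudocount of 1. It had a median of 3.18, 3.07 and 3.02 in replicates 1, 3 and 4, from a median of 4, 6 and 5 fragments. The largest numbers of fragments under one summit were 7, 21 and 33. A q (the p-value adjusted within a list) above 0.5 was carried by 86.5%, 92.1% and 94.1% of the peaks. Their median −log10 p was 3.52, 3.46 and 3.25, against 3.52, 3.45 and 3.25 for other autosomal peaks. Weak enrichment therefore does not set the long genes apart.

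A q below 0.05 was reached by 1, 2 and 4 peaks of the set, or 0.0954%, 0.287% and 0.266%, against 0.331%, 0.323% and 0.432% over all autosomal peaks. These 7 peaks lay in 7 genes. In replicate 1 it was Sugct, a mitochondrial coenzyme A transferase of glutarate metabolism, where 7 fragments on chromosome 13, between 17325447 and 17325716, gave a fold of 5.69 (q = 0.0132). In replicate 3 they were Ano2, a calcium-activated chloride channel, and Snx29, a sorting nexin. The Ano2 peak, between 125876720 and 125877382 on chromosome 6, had the lowest q of the set (q = 1.14e-07), with 21 fragments and a fold of 6.28. The Snx29 peak had 10 fragments and a fold of 5.06 (q = 0.0265).

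In replicate 4 the peaks with a low q were in Dock2, Gtdc1, Lrrc7 and Ntm. Gtdc1, a glycosyltransferase-like gene, and Lrrc7, a postsynaptic scaffold gene, each had 9 fragments and a fold of 5.44 (q = 0.00598). Dock2, a guanine nucleotide exchange factor of blood cells, had a fold of 3.09 over a high background of 9.99 fragments (33 fragments at the summit, q = 0.000727). Ntm, an IgLON adhesion gene, was the only one of the 7 in a fixed list, with 9 fragments and a fold of 4.78 (q = 0.0469). None of the 7 peaks overlapped a peak of another library. Over all autosomal peaks only 0.857%, 1.25% and 0.73% did in replicates 1, 3 and 4, so this does not set the 7 apart.

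Peaks were sparser inside long genes than inside shorter ones. Densities count peaks over the bases more than 1 kb from gene ends, and for long genes these came to 300.1 Mb. Long genes held 3.49 peaks per Mb in replicate 1 (95% exact Poisson interval 3.28 to 3.71), 2.32 in replicate 3 (2.15 to 2.50) and 5.01 in replicate 4 (4.76 to 5.27), where the intervals cover counting error only. Genes of 100 to 300 kb held 5.93, 3.77 and 7.15 peaks per Mb, and genes under 100 kb held 7.99, 4.43 and 7.81. Both shorter classes lay above the long genes in every library. The ratio of long genes to genes under 100 kb was 0.437, 0.524 and 0.641 (mean 0.534 ± 0.102 SD, n = 3), and to genes of 100 to 300 kb it was 0.635 ± 0.0579 (exact sign-flip permutation p = 0.25 for both, the smallest that 3 libraries allow).

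Against sequence outside protein-coding genes the long genes had no common direction. That sequence held 3.83, 2.02 and 4.68 peaks per Mb, and the ratios, in the same order, were 0.911, 1.15 and 1.07 (mean 1.04 ± 0.122 SD, n = 3, exact permutation p = 0.75). Over all other bases away from gene ends together the ratio was 0.829 ± 0.0955, with long genes the lower in each library (exact permutation p = 0.25).

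**Figure D1:**
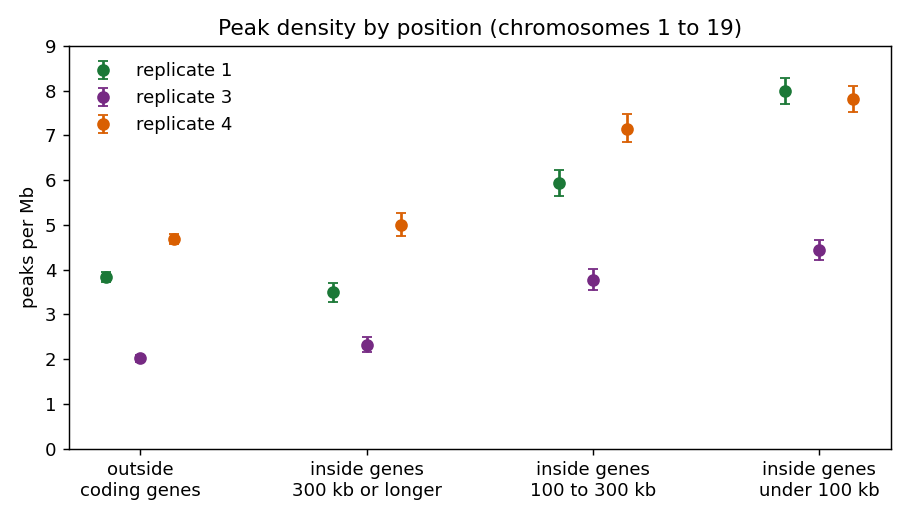
Peaks per Mb on chromosomes 1 to 19, more than 1 kb from gene ends, by position. Points are the 3 libraries and bars are 95% exact Poisson intervals (counting error only). Long genes lie near sequence outside genes and below both classes of shorter genes in every library.

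Density was also lower in the longer of the long genes. In the 133 shortest, of 300.2 to 363 kb, there were 4.59, 3.24 and 5.73 peaks per Mb in replicates 1, 3 and 4. In the 134 longest, of 649 to 2271 kb, there were 2.81, 1.77 and 4.59. The ratio of longest to shortest was 0.612, 0.547 and 0.800 (mean 0.653 ± 0.132 SD, n = 3, exact permutation p = 0.25). At the 300 kb limit, the 20 genes just inside had 3.78, 3.29 and 5.42 peaks per Mb, and the 20 just outside, of 294 to 299 kb, had 7.24, 4.55 and 5.56.

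**Figure D2:**
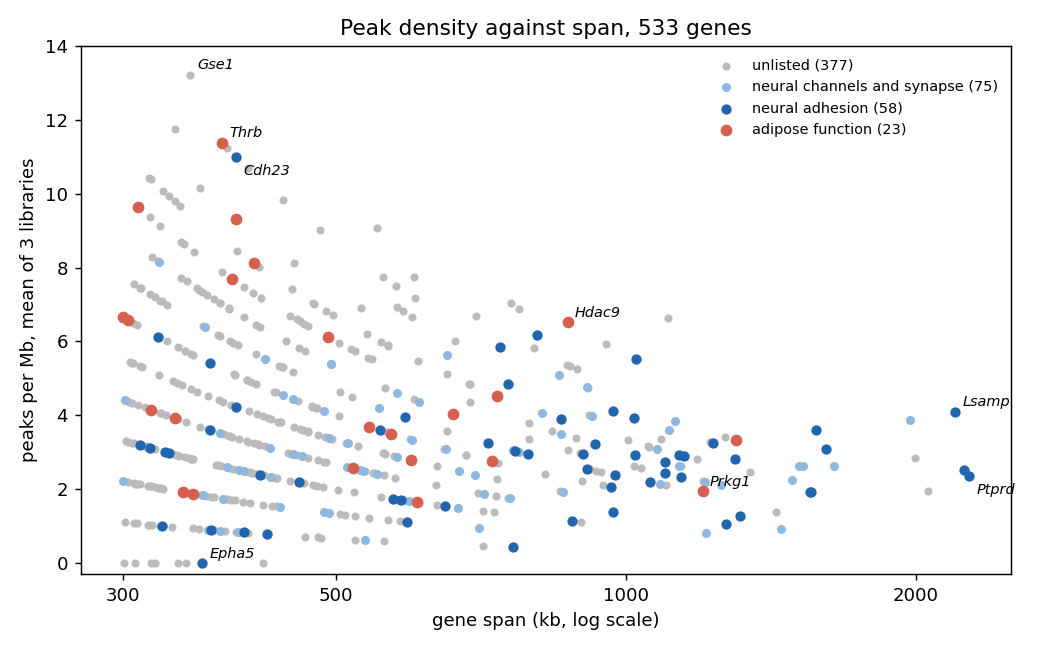
Peaks per Mb (mean of 3 libraries) against gene span on a log scale for the 533 long genes, coloured by gene list. The points spread most at short spans, where a single peak moves the density far. The adipose-function genes Thrb and Hdac9 stand above most genes of their span, and Prkg1, also of adipose function, lies low at 1.94 per Mb. A density above the median of all long genes was found for 16 of 23 adipose-function genes and 266 of 533 long genes.

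Most long genes held a peak in each list. A peak inside was found for 81.2%, 68.1% and 89.3% of long genes in replicates 1, 3 and 4, against 18.9%, 12.7% and 19.5% of all protein-coding genes. It was found for 296 of 533 (55.5%) in all 3 lists, against 3.89% of all protein-coding genes. In genes of 100 to 300 kb this share was 19.2%, and in genes under 100 kb it was 0.899%. Such a share depends on gene length and list size, and per Mb the long genes held fewer peaks than shorter ones. The share in all 3 lists was 47.4% among the 133 shortest long genes and 73.1% among the 134 longest. No peak in any list was found in 8 long genes. The longest 5 of these were Col25a1, a collagen of neurons, the ephrin receptor gene Epha5, Nol4, Rit2, a small GTPase gene, and Tmem132c.

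Several of the longest genes had the most peaks. Lsamp, a cell adhesion gene of the IgLON family that spans 2197 kb on chromosome 16, had 7, 5 and 15 peaks in replicates 1, 3 and 4. Dlg2, a postsynaptic scaffold gene, had 6, 4 and 13. Auts2, a gene of neuronal development, had 3, 8 and 11. Hdac9, the gene of a class IIa histone deacetylase that restrains adipocyte differentiation, had 6, 4 and 7 in a span of only 870 kb. Astn2, Cntnap2, Ctnna3, Macrod2 and Sox5 had 17 each in all, as did Hdac9. Next came Arhgap26, Ptprd and Zbtb20, tied at 16 each.

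Per Mb, shorter members led. Among genes hit in all 3 lists Gse1, a coregulator gene, came first with 25.5, 11.3 and 2.83 peaks per Mb in replicates 1, 3 and 4, a spread from 9 peaks to 1. Dlc1 was even across the libraries with 10.4, 13.0 and 10.4. Rere, a nuclear receptor corepressor gene, had 14.7, 8.81 and 11.7. The thyroid hormone receptor gene Thrb had 10.5, 7.88 and 15.8, and Cdh23, the cadherin of hair cell tip links, had 17.8, 10.2 and 5.08. The rest of the leading 10 were Cux1, Stag1, Frmd4b, Prickle2 and Ube2e2. Across the 533 genes the density in one library went with that in another only loosely. Pearson's r was 0.230 between replicates 1 and 3, 0.253 between 1 and 4, and 0.182 between 3 and 4. Genes share their span and base composition between libraries, and the part of either in these correlations was not tested.

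Long genes of adipose function carried more peaks per Mb than long genes of neural adhesion in all 3 libraries. The adipose list had 23 long genes with a summed span of 12.7 Mb, and the adhesion list had 58 with 51.0 Mb. Density here is over the whole annotated span. In replicate 1 there were 66 peaks in adipose genes, or 5.21 per Mb (95% exact Poisson interval 4.03 to 6.63), and 152 in adhesion genes, or 2.98 per Mb (2.52 to 3.49). In replicate 3 there were 34 and 78 peaks, or 2.68 (1.86 to 3.75) and 1.53 per Mb (1.21 to 1.91). In replicate 4 there were 70 and 209 peaks, or 5.52 (4.31 to 6.98) and 4.10 per Mb (3.56 to 4.69). The counting intervals stood apart in replicate 1 alone and overlapped in replicates 3 and 4. They leave out the spread between genes, which was wider than counting error. Over all long genes, with counts expected in proportion to span, the squared deviation over expectation was 1.42, 1.52 and 1.35 per degree of freedom.

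The ratio of adipose to adhesion genes was 1.75, 1.75 and 1.35 (mean 1.62 ± 0.233 SD, n = 3). It was above 1 in 3 of 3 libraries, and the two-sided exact sign-flip permutation test gave p = 0.25, the smallest p that 3 libraries allow, so the design cannot place it below 0.05. The median gene of each list showed the same order, with 6.23, 2.54 and 5.38 peaks per Mb for adipose genes and 2.88, 1.58 and 3.62 for adhesion genes. A peak in all 3 lists was found in 18 of 23 adipose genes (78.3%) and 33 of 58 adhesion genes (56.9%), against 55.5% of all long genes.

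Span and surroundings differed between these lists. Adipose genes had a median span of 490 kb and 4.02 other protein-coding genes per Mb, counted over the gene and 1 Mb either side, and adhesion genes had 833 kb and 1.48 per Mb. Among genes of 300 to 650 kb (17 adipose, 22 adhesion) the ratio was 1.76, 1.68 and 1.91, and among longer ones (6 and 36) it was 1.40, 1.39 and 1.18. Among genes with fewer neighbours than the median long gene (13 and 43) it was 1.74, 1.86 and 1.35. Among the others (10 and 15) it was 1.56, 1.29 and 1.39. All of these splits were chosen after the values were seen, and in each the adipose genes had the higher density in all 3 libraries. This did not hold at every span limit. With spans of at least 500 kb the mean log2 ratio fell to 0.337 ± 0.318 (SD, n = 3), from 0.683 with spans of at least 300 kb. At 500 kb the libraries did not share a direction (exact permutation p = 0.5).

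The flanks of the genes gave a local scale. In the 300 kb either side, outside protein-coding genes, there were 4.08, 2.04 and 4.08 peaks per Mb beside adipose genes and 3.32, 1.56 and 4.10 beside adhesion genes. Adipose genes held 1.28, 1.31 and 1.35 times the density of their own flanks (mean 1.31 ± 0.0386 SD, n = 3). Adhesion genes held 0.897, 0.981 and 0.999 times theirs (mean 0.959 ± 0.0544), so their density differed little from that of their surroundings. After division by the flanks the adipose genes stood 1.42, 1.34 and 1.35 times above adhesion genes (mean 1.37 ± 0.0437, exact permutation p = 0.25 for each of the 3 contrasts). All long genes together had ratios of 0.900, 1.06 and 1.06 to their flanks. GC content, repeats and mappability inside the genes were not analysed here, and their part in the difference was not tested.

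Against the remaining long genes, both neural lists were lower in all 3 libraries and the adipose list was not higher in all. The 377 long genes in no list had 3.80, 2.70 and 5.32 peaks per Mb. They are not a set without neural genes, since Auts2 and Lrrc7, for example, are among them. Nor are they without relatives of listed adipose genes, since Prkcb, a relative of Prkca and Prkce, is in no list. The overlapping entries Gm37013, Gm38666 and Gm38667 on chromosome 18 are also among the unlisted genes, and each counted the same 14 peaks. Adipose genes stood at 1.37, 0.995 and 1.04 times that density, with no common direction (exact permutation p = 0.5). Adhesion genes stood at 0.784, 0.567 and 0.770 times it (mean 0.707 ± 0.122, n = 3, exact permutation p = 0.25). A list of 75 long genes of neural channels and synapses, such as glutamate receptors and potassium channels, had 2.30, 1.67 and 4.69 peaks per Mb, or 0.605, 0.618 and 0.882 times the unlisted genes (mean 0.701 ± 0.156, exact permutation p = 0.25). These channel and synapse genes had a median of 4.02 neighbours per Mb, as did the adipose genes, and unlisted genes had 4.76. Median spans were 578 kb for channel and synapse genes, 490 kb for adipose genes and 417 kb for unlisted genes. The part of neighbours or span in these contrasts with unlisted genes was not tested.

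**Figure D3:**
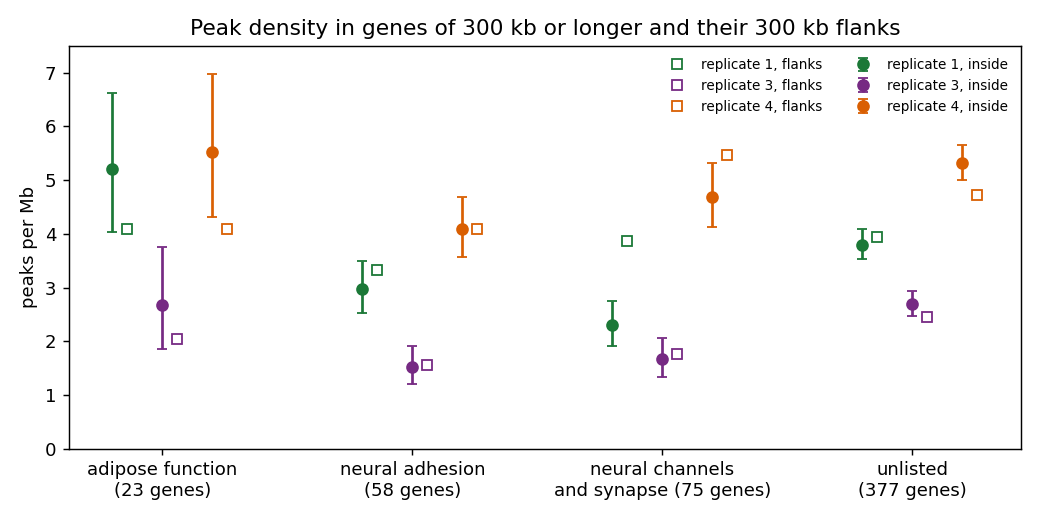
Peaks per Mb inside long genes (filled circles, with 95% exact Poisson intervals for counting error) and in their 300 kb flanks outside genes (open squares), by gene list and library. Adipose-function genes lie above their flanks in all 3 libraries, and neural adhesion genes lie at or below theirs.

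Among the adipose genes, transcription factors and coregulators had 6.12, 3.29 and 4.94 peaks per Mb in replicates 1, 3 and 4, and all 8 were hit in all 3 lists. Ebf1, an early factor of the adipocyte lineage, had 4, 1 and 4 peaks, and Zfp423, which marks cells committed to become preadipocytes, had 3, 1 and 2. Nfia, a nuclear factor I gene that promotes the brown fat program, had 4, 1 and 1. Prdm16, a determinant of brown and beige fat, had 2, 1 and 1, and Ppargc1a, the coactivator of mitochondrial biogenesis, had 4, 1 and 3. Foxp1, a forkhead repressor, had 2, 1 and 2, and Sox6, an SRY-box factor, had 1, 4 and 1. Replicate 3 had no more peaks than the other libraries in most of these genes, and Sox6 was the exception with its highest count there. Hdac9 belongs to the same group.

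The 5 nuclear receptor genes had 5.28, 2.03 and 8.53 peaks per Mb, with replicate 4 the highest. Thrb had 4, 3 and 6 peaks and the highest mean density of the adipose list, at 11.4 ± 4.01 peaks per Mb (SD, n = 3). Esr1, the estrogen receptor alpha gene, had 4, 1 and 6, and Rora, an orphan receptor of circadian and lipid regulation, had 4, 1 and 5. Esrrg, an estrogen-related receptor of oxidative metabolism, had 1, 0 and 2. Nr3c2, the mineralocorticoid receptor gene, had 0, 0 and 2, so it was hit in replicate 4 alone.

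The 5 kinase and phosphodiesterase genes had 4.08, 2.04 and 4.84 peaks per Mb. Prkca had 4, 2 and 4 peaks and Prkce had 4, 2 and 3, both protein kinase C genes. Prkg1, the cyclic GMP-dependent kinase gene, spans 1201 kb and had only 1, 1 and 5. Pde4d, a phosphodiesterase that degrades cyclic AMP, had 4, 2 and 7 over 1302 kb, and its relative Pde4b had 3, 1 and 0. Among genes of insulin signalling and vesicle transport, Vti1a, a SNARE of vesicle fusion, had 3, 2 and 4 peaks, Pid1, an inhibitor of insulin signalling, had 2, 3 and 1, and Exoc4, a subunit of the exocyst that tethers vesicles, had 3, 2 and 1. Fto, an RNA demethylase gene whose locus is linked to obesity, had 0, 0 and 2, and Agmo, an ether lipid monooxygenase gene, had 3, 0 and 1.

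**Figure D4:**
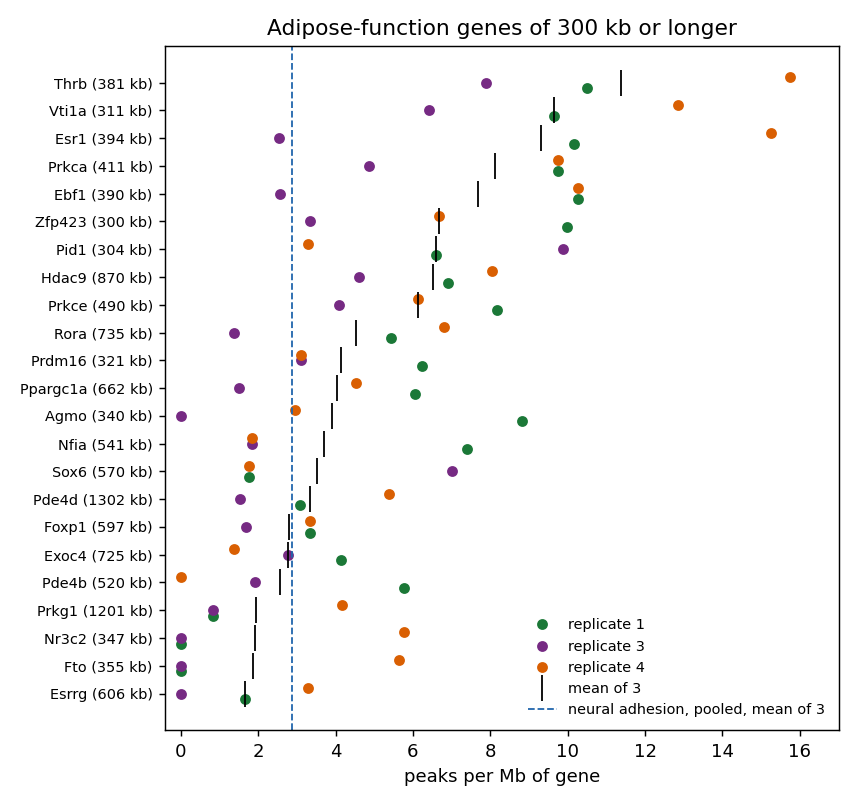
Peaks per Mb of gene in each library (points) and their mean (tick) for the 23 adipose-function genes of 300 kb or longer. The dashed line is the pooled density of neural adhesion genes. Thrb has the highest mean, and Fto and Nr3c2 have peaks in replicate 4 only.

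A q below 0.05 was reached by 0 of 66, 0 of 34 and 0 of 70 peaks in adipose genes, and over all autosomal peaks it was reached by 0.331%, 0.323% and 0.432%, so 0 in sets of this size does not set the adipose genes apart. Their folds ran from 2.46 to 4.65 in replicate 1, from 2.43 to 4.60 in replicate 3 and from 2.41 to 4.35 in replicate 4, from at most 6, 9 and 7 fragments. The lowest q values were 0.129 in replicate 1 for Pde4b (chromosome 4, 102494430 to 102494886), 0.144 in replicate 3 for Exoc4 (chromosome 6, 33852842 to 33853158) and 0.262 in replicate 4 for both Pid1 and Prkg1. A density above that of all long genes together in every library was found for 8 of 23 adipose genes (34.8%): Ebf1, Esr1, Hdac9, Prkca, Prkce, Thrb, Vti1a and Zfp423. The same held for 5 of 58 adhesion genes (8.62%), Adgrl3, Cdh23, Cdh8, Negr1 and Unc5c, and for 17.5% of unlisted and 15.9% of all long genes.

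Every family of neural adhesion genes had its lowest density in replicate 3 and its highest in replicate 4. All long genes together had the same order, with 3.46, 2.32 and 5.01 peaks per Mb in replicates 1, 3 and 4. The IgLON genes Lsamp, Ntm, Negr1 and Opcml, which encode lipid-anchored adhesion molecules, had 3.76, 1.78 and 6.33 peaks per Mb. Cadherins, protocadherins and catenins had 3.30, 1.55 and 4.18, and synaptic organisers such as Nrxn3, Ptprd and the teneurins had 3.22, 1.58 and 4.20. Guidance receptors had 2.55, 1.44 and 3.19, and contactins with their associated proteins had the lowest mean, with 2.15, 1.01 and 3.55.

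Single adhesion genes showed how thinly peaks were spread. Ptprd, a receptor phosphatase of synapse formation and the longest gene at 2271 kb, had 3, 5 and 8 peaks. Cntnap2, a contactin-associated protein of axons, had 6, 2 and 9 over 2241 kb. Nrxn3, a presynaptic neurexin, had 4, 5 and 6. The alpha-catenin genes Ctnna3 and Ctnna2 had 2, 3 and 12, and 3, 2 and 4. The teneurin genes Tenm2 and Tenm3 had 3, 2 and 7, and 6, 2 and 3. The axon guidance receptor Robo2 had 5, 2 and 2, and Ptprt, a relative of Ptprd, had 5, 1 and 2. Cdh12, a cadherin, had 2, 1 and 7, and Opcml had 1, 2 and 7. Replicate 4 was the highest for most of these.

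Some of the longest adhesion genes missed replicate 3 altogether. Pcdh15, a protocadherin of hair cells, had 4, 0 and 5 peaks over 1554 kb, Lrrc4c, a postsynaptic adhesion gene, had 2, 0 and 3 over 1314 kb, and Cntn5, a contactin, had 1, 0 and 3 over 1271 kb. Replicate 3 had the fewest peaks of any list. Cdh13 encodes T-cadherin, a neural cadherin that also binds adiponectin, and was placed in neither list. It spans 1185 kb and had 4, 4 and 2 peaks, or 2.81 ± 0.975 per Mb (SD, n = 3).

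Peaks inside long genes were rarely found at the same place in another library. An overlap of at least 1 bp with another list was found for 1 of 1048 peaks in replicate 1 (0.0954%, exact 95% binomial interval 0.00242% to 0.530%), 4 of 697 in replicate 3 (0.574%, 0.157% to 1.46%) and 5 of 1503 in replicate 4 (0.333%, 0.108% to 0.775%). Over all autosomal peaks the shares were 0.857%, 1.25% and 0.73%. Peaks outside the set had 0.931%, 1.33% and 0.781%, above the members in each library, and that difference was not tested.

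The 10 overlapping peaks formed 5 regions, each of 2 lists. In Thrb, on chromosome 14 at 17985456 to 17986016, the folds were 2.76 in replicate 3 and 3.15 in replicate 4, with summits 226 bp apart. In Wwox, an oxidoreductase gene, on chromosome 8 at 115025858 to 115026122, the folds were 3.68 in replicate 3 and 3.12 in replicate 4, and the summits lay 2 bp apart. Agbl4, a deglutamylase gene, had 3.68 and 2.97 in the same libraries. Kirrel3, a synaptic adhesion gene, had 2.43 and 3.26 in the same libraries. Dlgap1, a postsynaptic scaffold gene, had 2.69 in replicate 1 and 3.21 in replicate 4. Each peak of these regions rested on 3 to 7 fragments, with q from 0.745 to 1.

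The height and shape of peaks inside long genes were close to those of other peaks in the same list. The median fold was 3.18, 3.07 and 3.02 for members and 3.20, 3.00 and 2.99 for the others, lower in replicate 1 and higher in replicates 3 and 4 (mean difference 0.0271 ± 0.0478 SD, n = 3, exact permutation p = 0.5). Median fragments were equal in each list. The median background under the summit was 0.448, 1.32 and 0.922 fragments for members against 0.467, 1.34 and 0.939, a small difference that was lower for members in 3 of 3 libraries (exact permutation p = 0.25). Median widths were 245, 266 and 238 bp against 245, 267 and 241.

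Along the genes the peaks were spread widely. Strand was known for 405 of the 533 genes, which were divided into 5 equal parts from the 5′ end. The first part had 3.31, 2.11 and 5.58 peaks per Mb in replicates 1, 3 and 4 and the last had 4.43, 2.73 and 4.77. The first part stood at 0.892, 0.876 and 1.12 times the others and the last at 1.29, 1.20 and 0.923 times, so replicate 4 went the other way from replicates 1 and 3 at both ends (exact permutation p = 0.75 and 0.5).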

How the data were processed

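The data were 3 peak lists, 1 for each anti-Flag library. The submitters' processing notes name build mm10 and the tools MACS2 2.1.0, BWA 0.7.12 and fastp 0.19.11. The sources used here do not say whether the input entered peak calling, and the labels name both single-end and paired-end reads. The deposited values are a fold ratio over local background, −log10 p-values and q-values, and an integer score equal to the whole part of 10 times the −log10 p, all by the authors' peak caller. They were compared within a list only.

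Intervals on chromosomes 1 to 19 were reduced to their summit of lowest p. Fragments and background at a summit were solved from fold and p, within 0.001 on the log10 scale for 100% of peaks. Read totals are unknown. The lowest background was 0.407, 1.17 and 0.839 fragments in replicates 1, 3 and 4. Genes came from RefSeq GRCm38.p6. All 117, 99 and 88 symbols fixed for adipose function, neural adhesion, and neural channels and synapse matched it.

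List density is peaks over annotated span. Tests were two-sided exact sign-flip permutations over 3 libraries (scipy 1.17.1), whose smallest p is 0.25. The density ratio of adipose to adhesion genes, set membership and the solving of fragments were checked on simulated data. Simulated densities were far above those seen here, and the permutation test was not part of that check. The permutation test gives its smallest p whenever the 3 libraries share a direction, however far their values spread. Without stated separate animals, p-values speak only for these libraries. Named genes were all adipose genes of 300 kb or longer, the 15 longest adhesion genes, the 10 with most peaks (a tie for the last place went by symbol, and Zbtb20 was added from that tie after its values were seen), the 10 densest hit in all 3 lists, the 5 longest without a peak, genes with a q below 0.05 or a region of 2 lists, and Cdh13; subfamilies and the other genes were chosen after their values were seen. The set and lists were chosen with earlier results of these data known. GC content around summits was planned and needs genome sequence, so it was not analysed here. Alternatives were other spans, end windows, thresholds, denominators and overlaps, and leaving out each replicate.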

Additional observations from a re-analysis of the deposited data

Results flagged for a closer look

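Chromosome X lay outside the peaks described above. It has 24 protein-coding genes of 300 kb or longer, and peaks inside them numbered 5 in replicate 1, 1 in replicate 3 and 6 in replicate 4. The counts of 5 and 6 are above 3 counts, which was the floor used here. They amount to 0.334 peaks per Mb (95% exact Poisson interval 0.108 to 0.779) in replicate 1 and 0.401 (0.147 to 0.872) in replicate 4, against 3.49 and 5.01 inside long genes of chromosomes 1 to 19. The whole of chromosome X had 70, 9 and 57 peaks, or 0.410, 0.0527 and 0.334 per Mb, in replicates 1, 3 and 4.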

How the results depend on the processing

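The higher density of adipose over adhesion genes kept its direction under all 15 alternatives, with a mean log2 ratio of 0.683 and a range of 0.337 (spans of at least 500 kb, where 1 library went the other way) to 0.832 (300 to 650 kb, chosen after seeing the data), and 0.619 to 0.809 leaving out each replicate. Long genes against the rest kept theirs under all 8, from -0.481 to -0.123. The mean of 1083 member peaks became 569 with spans of at least 500 kb and lay at 872.5 to 1276 leaving out each replicate. Genes hit in all 3 lists became 147 with that span, and those hit in both of the lists left were 308 to 398. The 10 overlapping peaks became 26 with spans of at least 200 kb, 4 at a −log10 p of at least 3, 6 with 50% reciprocal overlap and 4 with summits within 100 bp, and were 0 to 8 leaving out each replicate: 8 without replicate 1, 2 without replicate 3 and 0 without replicate 4. The mean difference in median fold, 0.0271, was 0.00279 without replicate 3, 0.0281 without replicate 4 and 0.0505 without replicate 1. That in background, -0.0191, was -0.00649 with spans of at least 200 kb. Neither changed sign under its 6 alternatives. No paired analysis was possible because only the Flag group was analysed here, and each test already used ratios or differences taken within a library. With 3 to 6 fragments under most summits, single peaks carry a large counting error.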
